A study of Mus musculus with 14 samples.

Results

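The mitochondrial ribosomal protein genes, whose symbols begin with Mrpl or Mrps, were examined in retinal microglia of APOE4 and APOE3 mice with and without a microbead model of glaucoma. All rows of the deposited gene table with such a symbol and number were taken, without pseudogenes, which gave 78 genes among 35735 rows. Microglia, the resident macrophages of neural tissue, were sorted from mouse retinas as cells positive for CD11b and Fcrls and negative for Ly6c, and their RNA was sequenced as 14 libraries of 1 retina each. The 4 groups were APOE4 microbead (APOE E4/E4, microbead injection, n = 3), APOE3 microbead (APOE E3/E3, microbead injection, n = 3), APOE4 sham (APOE E4/E4, sham injection, n = 4) and APOE3 sham (APOE E3/E3, sham injection, n = 4). All mice are labelled as 12 weeks old, and how the APOE alleles were introduced is not given in the sources used here. Microbeads block fluid outflow from the eye and raise its pressure. A retina gave 100 to 600 sorted cells, of which 100 to 300 were lysed in 5 µl. The labels do not say that retinas came from separate animals, so p-values measure the spread between these samples, which may be partly technical.

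Mitochondria keep their own ribosome, which translates only the few messenger RNAs of the mitochondrial genome, all for subunits of the respiratory chain and of ATP synthase. Its ribosomal RNA is made inside the organelle, while every protein of its large (Mrpl) and small (Mrps) subunit is encoded in the nucleus, made on cytosolic ribosomes and imported. Many of these proteins have a bacterial counterpart, and others are found only in mitochondria. Names and places do not always match: Mrps30 and Mrps18a are proteins of the large subunit, and Mrps36 is now known as a component of the alpha-ketoglutarate dehydrogenase complex.

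Libraries held 451480 to 727901 estimated reads, of which 38.5% to 65.3% fell on 12 predicted genes at satellite repeats, leaving 226600 to 447365. Between 545 and 1379 reads per library fell on mitochondrial ribosomal protein genes, and 73 to 78 of the 78 had a read in each library. Summed microglial markers (12 of 12 tested) were at 19618 to 22365 CPM (reads per library size scaled by the trimmed mean of M values) in APOE4 microbead, against 18123 to 21454 CPM in APOE4 sham. In the APOE3 groups they were at 11271 to 17255 CPM in microbead and 17271 to 23470 CPM in sham. Of the 12, 7 fell, beside 1.67% of all genes tested that fell in APOE3. In all, 9 of the 12 had a log2 fold change below 0 in APOE3 and 3 above, with 0 called higher. Means of C1qa, C1qb and C1qc were 2026, 2694 and 1706 CPM in APOE3 microbead, against 1688, 2218 and 937 CPM in APOE3 sham. Monocyte markers (2 of 12 tested) summed to 88.8, 231 and 96.8 CPM in APOE4 microbead, against 71.1 to 92.7 CPM in APOE4 sham. They summed to 1558, 746 and 325 CPM in APOE3 microbead, against 79.2 to 118 CPM in APOE3 sham. Of the 12 monocyte markers, 9 had a higher mean in APOE3 microbead than in APOE3 sham. Fn1, which passed the test, averaged 630 CPM in APOE3 microbead, against 22.0 CPM in APOE3 sham. With too few reads for a test, Ccr2 averaged 71.8 CPM in APOE3 microbead against 12.1 in APOE3 sham, Chil3 55.3 against 1.61, S100a4 14.1 against 0 and Plac8 13.4 against 3.65. Ly6c2, which the sort selects against, averaged 2.09 CPM in APOE3 microbead and 2.22 CPM in APOE3 sham. Neutrophil markers were at 0 to 4.98 CPM in all 14 libraries, and rod photoreceptor markers at 172 to 2078 CPM. Lymphocyte markers (3 of 7 tested) summed to 162 to 252 CPM in APOE4 microbead, against 244 to 338 CPM in APOE4 sham. In APOE3 they summed to 109 to 146 CPM in microbead and 286 to 318 CPM in sham, without overlap, and 1 of the 3, Ighm, fell (-1.35 ± 0.21, adjusted p = 0.000163 by edgeR). For rod, Muller glia, neuron, and red cell and endothelial markers the microbead and sham ranges overlapped in both genotypes. The part of these other cells in any value below was not tested.

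Levels between genes were compared per transcript length, as TPM (reads per transcript length, scaled to a fixed sum per library) recomputed without the satellite genes. Mean levels over the 14 libraries spanned 6.65 TPM for Mrpl1, the protein of the mobile arm beside the exit site, to 379 TPM for Mrpl48, a protein of the central protuberance of the large subunit. Mrpl48 averaged 377 ± 56.0 TPM in APOE4 microbead, 282 ± 65.2 in APOE3 microbead, 347 ± 150 in APOE4 sham, then 484 ± 182 in APOE3 sham (SD, n = 3, 3, 4 and 4). Mrpl52, a large subunit protein found only in mitochondria, followed with 223 ± 37.4 TPM in APOE4 microbead, 298 ± 53.4 in APOE3 microbead, 217 ± 69.9 in APOE4 sham, then 192 ± 93.3 in APOE3 sham. Mrpl20, which binds the large ribosomal RNA in bacteria, came after Mrpl52. Its means were 202 ± 108 TPM in APOE4 microbead, 259 ± 111 in APOE3 microbead, 232 ± 95.3 in APOE4 sham, then 195 ± 81.5 in APOE3 sham, so that Mrpl52 and Mrpl20 lay within each other's spread. The next were Mrps15 with 107 TPM and Mrps21 with 104 TPM over all libraries, both small subunit proteins with bacterial counterparts. At the low end, Mrpl47, at the polypeptide exit, averaged 13.7 TPM and the small subunit protein Mrps31 10.9 TPM. Mrpl1 had 28 reads in all and was without a read in 4 of the 14 libraries.

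**Figure D1:**
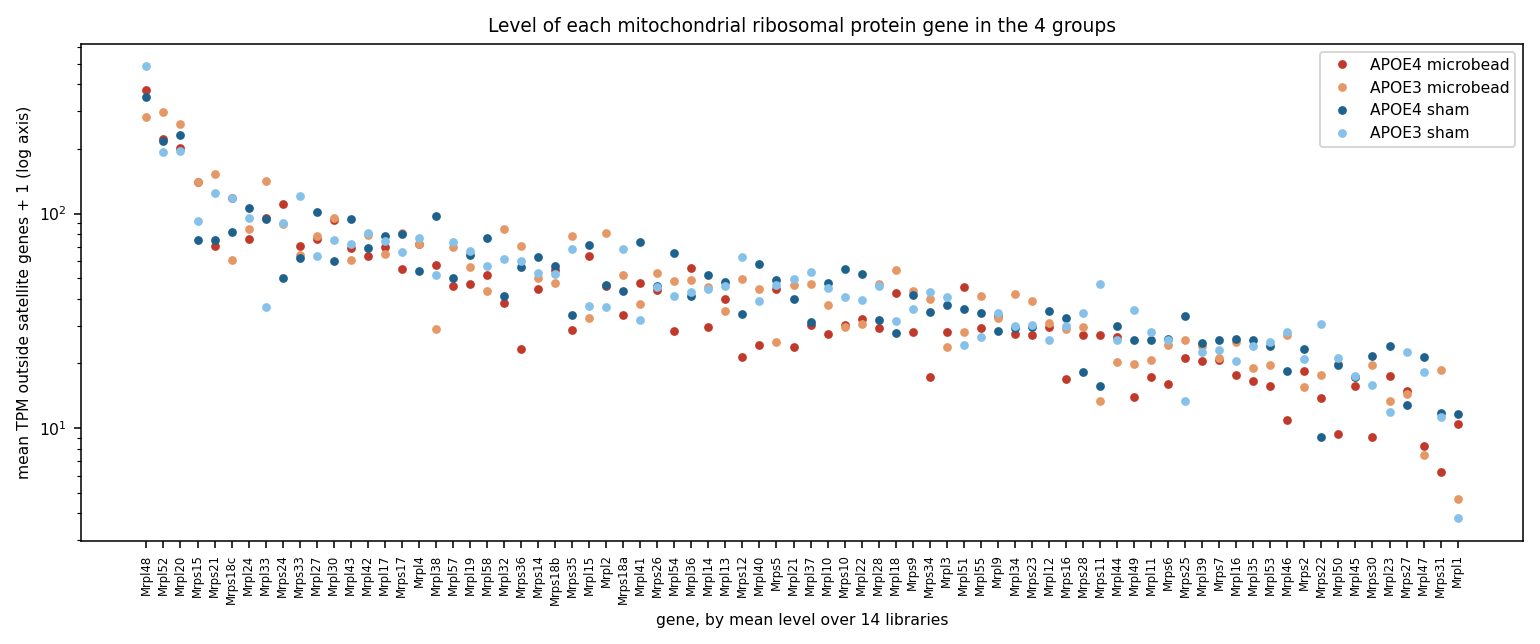
Mean TPM outside satellite genes, plus 1, on a log axis for each of the 78 genes (ordered by their mean over 14 libraries) in the 4 groups, with no error drawn. Mrpl48, Mrpl52 and Mrpl20 stand above the others, and Mrpl1 is lowest; for most genes the 4 group means lie close to each other compared with the span between genes.

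Part of these levels rested on transcripts that the annotation does not class as coding. Reads per transcript are estimates, as transcripts of a gene share sequence, and their assignment is uncertain at this depth. The count that follows was not made over all coding genes. For 14 of the 78 genes the transcript with the most reads was a retained intron, a processed transcript or a target of nonsense-mediated decay. Mrpl48 was one of them: 74.0% of its reads over 14 libraries fell on a processed transcript of 706 bases, and 18.6% on its coding transcripts. The exons of Mrpl48 also overlap those of Rab6a. Mrpl13 and Mrps11 are added here for their transcripts after their values were seen. Of the Mrpl13 reads, 86.8% fell on a retained intron transcript of 6008 bases, and 9.46% on coding transcripts. Exons of Mrpl13 overlap those of Mtbp, so part of these reads may belong to Mtbp. For Mrps11, 67.7% of reads fell on a transcript classed as a decay target, and this gene shares exon sequence with its neighbour Mrpl46. At the other end, Mrpl19 had 99.8% and Mrpl27 99.4% of their reads on coding transcripts. The coding share of all mitochondrial ribosomal protein reads was 72.2% ± 1.31 in APOE4 microbead, 77.0% ± 2.70 in APOE3 microbead, 72.6% ± 2.80 in APOE4 sham, then 70.5% ± 5.89 in APOE3 sham (SD). Over all coding genes it was 79.2% ± 0.615, 80.0% ± 2.74, 79.1% ± 0.887 and 79.1% ± 1.74 in the same groups. In each of the 14 libraries the share for mitochondrial ribosomal protein genes was the lower of the pair. These shares pool reads, so that genes with many reads weigh most, such as Mrpl19 (853), Mrpl48 (488) and Mrpl13 (376). The share without Mrpl48 and Mrpl13 was not computed.

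**Figure D2:**
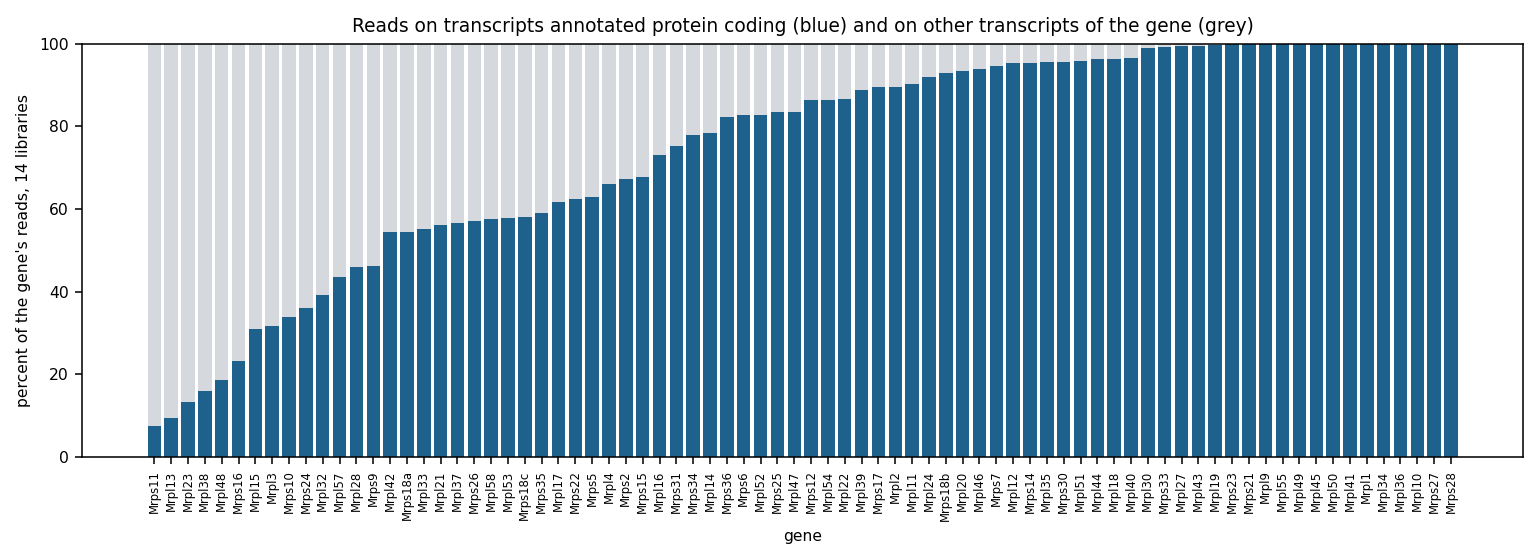
Percent of each gene's reads over 14 libraries on transcripts annotated as protein coding (blue) and on its other transcripts (grey), for the 78 genes in order of the coding share. Mrps11 and Mrpl13 are lowest, and Mrpl48 stands among the lowest 5 at 18.6%.

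In all, 33 of the 78 genes share exon sequence with another annotated gene. The same count was not made over all coding genes. Whether counting used strand is not given in the sources used here, so reads in the shared sequence may belong to either gene. The length of the shared sequence was not measured, and the counts of such pairs are uncertain. Among the genes below, this concerns Mrpl33 (Gm43809), Mrps30 (B430218F22Rik), Mrpl18 (Tcp1), Mrpl19 (Gcfc2), Mrpl10 (Gm11574), Mrps24 (Urgcp), Mrps26 (4930473A02Rik) and Mrpl24 (Rrnad1). It also concerns Mrpl3, Mrpl12, Mrpl27, Mrpl43, Mrpl44, Mrpl47, Mrpl48, Mrpl49, Mrpl58, Mrps18b and Mrps18c. Mrpl23 can also share reads with its processed copy Mrpl23-ps1, which had 136 reads in the 14 libraries, against 96 for Mrpl23.

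As a share of the reads outside satellite genes, mitochondrial ribosomal protein transcripts had means that differed by less than 1 SD between APOE3 microbead and both sham groups. The share was 0.229%, 0.292% and 0.229% in APOE4 microbead, 0.294%, 0.308% and 0.290% in APOE3 microbead, 0.279%, 0.295%, 0.318% and 0.294% in APOE4 sham, and 0.305%, 0.282%, 0.312% and 0.284% in APOE3 sham. APOE4 microbead replicates 1 and 3 were the lowest of all 14 libraries, while replicate 2 lay inside the range of APOE4 sham. Group means were 0.250% ± 0.0364 in APOE4 microbead, 0.297% ± 0.00961 in APOE3 microbead, 0.296% ± 0.0159 in APOE4 sham, then 0.296% ± 0.0146 in APOE3 sham (SD). In such bulk samples a smaller number of cells of a type and less RNA per cell cannot be told apart. The summed TPM as deposited spread more widely, with 302, 440 and 372 in APOE4 microbead, 338, 886 and 451 in APOE3 microbead, 427 to 637 in APOE4 sham, then 342 to 768 in APOE3 sham. Its ratio of microbead over sham means was 0.692 in APOE4 and 1.15 in APOE3. Recomputed without the satellite genes, which differ in amount between libraries, the ratio was 0.893 in APOE4 and 0.993 in APOE3.

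The microbead comparison in APOE3 retinas asks what the glaucoma model changed in that genotype. Here 51 of the 78 genes had enough reads to be tested, and the edgeR quasi-likelihood test called 0 of them at an adjusted p under 0.05. Over all 7609 genes tested it called 5.2% (396). Among the 2616 genes whose mean CPM lay in the middle range of the 51 genes (14.1 to 26.8 CPM), it called 2.18% (57). DESeq2 and limma-voom also called 0 of the 51. At an unadjusted p under 0.05 there were 2, both higher in microbead, where 14.7% of all genes tested passed. The median log2 fold change of the 51 genes was 0.09, beside -0.02 over all genes tested, with 32 above 0 and 19 below. The 51 genes that could be tested had 90 to 853 reads over the 14 libraries, and the other 27 had 28 to 104. Intervals were wide: the median half-width of the 95% interval was 0.93 on the log2 scale, and for 11 of the 51 genes the interval lay within a 2-fold change in either direction.

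Mrpl33, a small protein of the large subunit (chromosome 5, 31596935 to 31664384, GRCm38), came closest to the threshold. It was at 24.9, 35.6 and 14.2 CPM in APOE3 microbead, against 15.5, 14.04, 8.13 and 7.20 CPM in APOE3 sham, so that the groups overlapped through microbead replicate 3. The log2 fold change was 1.19 ± 0.43 (SE, adjusted p = 0.127 by edgeR), with a 95% interval of 0.30 to 2.07. Its coding transcript of 478 bases held 55.3% of its reads over the 14 libraries. This transcript had 8.96, 25.6 and 2.77 estimated reads in APOE3 microbead, against 2.86, 0, 0 and 3.88 in APOE3 sham. When transcript lengths were taken into account as offsets, Mrpl33 passed with a log2 fold change of 2.14 (adjusted p = 0.0242), beside 223 of 7609 genes called in all. Without APOE3 microbead replicate 2 the log2 fold change was 0.79 (adjusted p = 0.596), and without replicates 1 and 2 together it was 0.36 (adjusted p = 0.968).

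Mrpl18, a large subunit protein at the central protuberance (chromosome 17, 12911349 to 12916345), was at 29.4, 17.8 and 17.8 CPM in APOE3 microbead, against 12.0, 8.78, 4.06 and 13.2 CPM in APOE3 sham. It was the only tested gene of the 51 whose microbead libraries all lay above all sham libraries in APOE3, an arrangement found for 7.57% of all genes tested. None of the 51 had all microbead libraries below all sham libraries, which 5.53% of all genes tested had. The log2 fold change of Mrpl18 was 1.10 ± 0.52 (SE, adjusted p = 0.310). Next came Mrps15, a small subunit protein that binds the small ribosomal RNA, with 52.0, 45.6 and 16.0 CPM in APOE3 microbead, against 27.5, 26.3, 28.4 and 13.2 CPM in APOE3 sham. Its log2 fold change of 0.69 ± 0.40 (adjusted p = 0.454) was close in size to that of Mrpl52, 0.65 ± 0.40 (adjusted p = 0.503), and both groups of libraries overlapped for both genes.

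On the lower side, the smallest unadjusted p in APOE3 belonged to Mrpl38, a large subunit protein found only in mitochondria. It was at 11.3, 15.6 and 5.33 CPM in APOE3 microbead, against 17.2, 14.04, 16.3 and 21.6 CPM in APOE3 sham, with a log2 fold change of -0.64 ± 0.46 (adjusted p = 0.606). Mrpl48 had -0.44 ± 0.33 (adjusted p = 0.634), with 65.6, 45.6 and 51.5 CPM in APOE3 microbead and 75.6, 91.3, 95.5 and 32.4 CPM in APOE3 sham. The small subunit proteins Mrps33 (-0.68 ± 0.55, adjusted p = 0.664) and Mrps10 (-0.55 ± 0.45, adjusted p = 0.670) were further from the threshold. For all 4 genes the microbead and sham libraries overlapped.

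**Figure D3:**
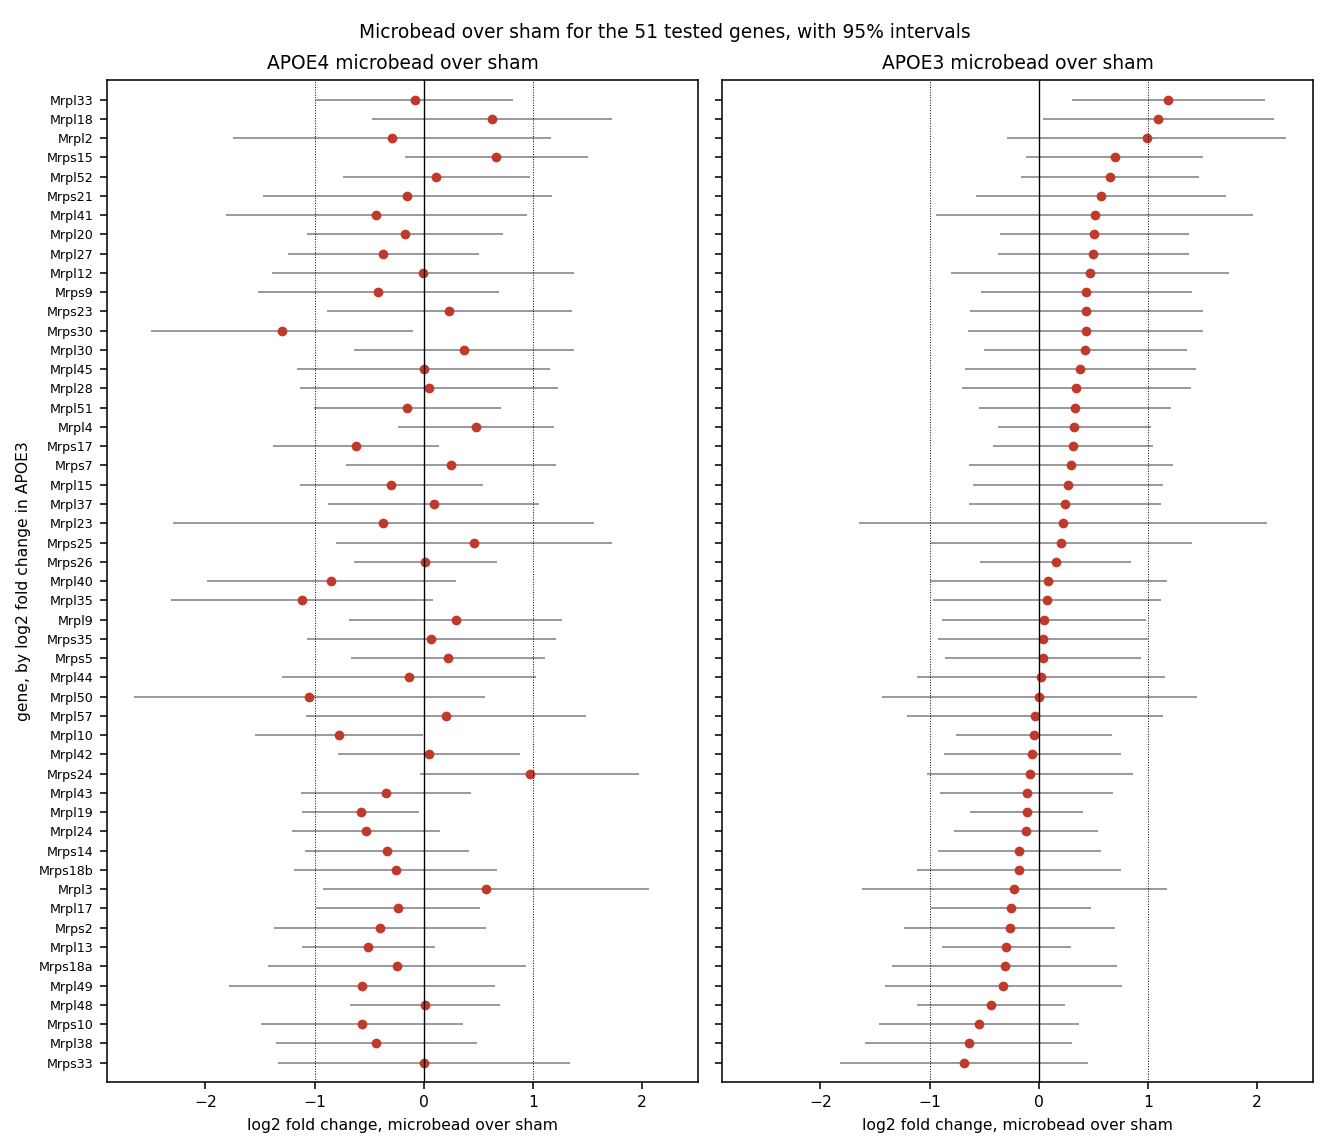
Log2 fold change of microbead over sham (points) with 95% intervals (grey lines) for the 51 tested genes in APOE4 (left) and APOE3 (right), in the order of the APOE3 value; dotted lines mark a 2-fold change. In APOE4 the intervals of Mrps30, Mrpl19 and Mrpl10 lie below 0, in APOE3 those of Mrpl33 and Mrpl18 lie above 0, and none of these 5 passed after adjustment.

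In APOE4 retinas the same comparison also gave 0 calls among the 51 genes by edgeR, DESeq2 and limma-voom, where edgeR called 0.223% (17) of all 7609 genes and 0 of the 2616 genes of similar level. At an unadjusted p under 0.05 there were 3 of 51, all lower in microbead, beside 6.49% of all genes tested. The median log2 fold change was -0.15, beside -0.00 over all genes tested, with 20 genes above 0 and 31 below. Leaving out 1 library gave medians between -0.33 (without APOE4 microbead replicate 2) and -0.074 (without APOE4 microbead replicate 1).

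Mrps30, a protein of the large subunit despite its name (chromosome 13, 118378381 to 118387252), was at 6.05, 4.98 and 8.64 CPM in APOE4 microbead, against 14.4, 14.9, 16.0 and 20.7 CPM in APOE4 sham. The libraries did not overlap, on 3 to 5 reads per library in microbead and 8 to 11 in sham. The log2 fold change was -1.30 ± 0.59 (SE, adjusted p = 0.695). Mrpl19, a large subunit protein near the contact with the small subunit (chromosome 6, 81957851 to 81965958), had the most reads of all 78 genes. It was at 58.5, 81.4 and 81.2 CPM in APOE4 microbead, against 93.3, 101, 105 and 143 CPM in APOE4 sham, again without overlap, and its log2 fold change was -0.58 ± 0.26 (adjusted p = 0.701). Mrpl10, at the base of the stalk that binds translation factors (chromosome 11, 97041560 to 97049213), was at 16.1, 13.3 and 20.7 CPM in APOE4 microbead, against 21.5, 33.1, 32.0 and 28.3 CPM in APOE4 sham (-0.78 ± 0.38, adjusted p = 0.763). Together with Mrps10 (16.1, 19.9 and 13.8 CPM in APOE4 microbead, against 21.5, 33.1, 23.1 and 20.7 CPM in APOE4 sham), these were the 4 of 51 genes with all microbead libraries below all sham libraries. Over all genes tested that share was 4.0%, and the reverse order was found for 0 of 51 and 5.03% of all genes tested. Mrpl35, of the large subunit core, had -1.11 ± 0.59 (adjusted p = 0.806), with 14.1, 8.30 and 6.91 CPM in APOE4 microbead, against 12.6, 34.8, 23.1 and 13.2 CPM in APOE4 sham.

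The highest positive value in APOE4 was that of Mrps24, a small subunit protein where the messenger RNA enters. It was at 24.2, 18.3 and 25.9 CPM in APOE4 microbead, against 7.18, 11.6, 19.6 and 7.54 CPM in APOE4 sham, where replicate 3 overlapped the microbead range. The log2 fold change was 0.97 ± 0.49 (adjusted p = 0.796), and 60.8% of the reads of Mrps24 fell on a retained intron transcript. Mrps15 had 0.66 ± 0.41 (adjusted p = 0.876), Mrpl18 0.63 ± 0.54 (adjusted p = 0.925) and Mrpl4, which lines the exit tunnel, 0.47 ± 0.35 (adjusted p = 0.906). Mrpl33, at 16.1, 16.6 and 17.3 CPM in APOE4 microbead, against 19.7, 18.2, 19.6 and 13.2 CPM in APOE4 sham, had a log2 fold change of -0.08 ± 0.44 (adjusted p = 0.998).

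The difference of the microbead effects, APOE4 minus APOE3, was tested as the interaction. By edgeR 0 of 51 genes passed, beside 0.092% (7) of all genes tested, and DESeq2 and limma-voom called 0 of the 51 as well. At an unadjusted p under 0.05 there were 2 of 51, both with a lower microbead effect in APOE4, beside 8.19% of all genes. These were Mrps30 (-1.73 ± 0.79, adjusted p = 0.563) and Mrpl33 (-1.27 ± 0.62, adjusted p = 0.609). The median was -0.21, beside 0.01 over all genes tested, and 37 of 51 genes were below 0. Of the 2616 genes of similar level edgeR called 0.0382% (1). Further values were -0.94 ± 0.51 for Mrps17 and -1.19 ± 0.78 for Mrpl35 on the lower side, and 1.05 ± 0.67 for Mrps24, 0.44 ± 0.47 for Mrpl48, 0.69 ± 0.81 for Mrps33 and 0.79 ± 1.00 for Mrpl3, a protein near the catalytic centre, on the upper side (SE). Adjusted p-values of these 6 genes lay between 0.676 and 0.932. For all 51 genes the 95% interval of the interaction reached past 2-fold in at least 1 direction.

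Between genotypes in sham retinas, which asks whether microglia of the genotypes differ without the model, 0 of 51 genes passed by edgeR, DESeq2 or limma-voom. Over all genes tested edgeR called 0.0131% (1). At an unadjusted p under 0.05 there were 0 of 51, beside 4.4% of all genes tested, and the median was 0.05. Mrps26, a small subunit protein found only in mitochondria, was at 32.3, 29.8, 37.3 and 35.8 CPM in APOE4 sham, against 27.5, 24.6, 16.3 and 21.6 CPM in APOE3 sham (0.58 ± 0.31, adjusted p = 0.962). Mrpl15, of the large subunit core, was at 26.9, 39.7, 28.5 and 33.9 CPM in APOE4 sham, against 18.9, 19.3, 24.4 and 18.0 CPM in APOE3 sham (0.69 ± 0.39, adjusted p = 0.962). These 2 of 51 genes had all APOE4 sham libraries above all APOE3 sham libraries, beside 2.16% of all genes tested. Mrps35 was the 1 gene in the reverse order, beside 1.37% of all genes tested. It was at 5.38, 13.2, 10.7 and 13.2 CPM in APOE4 sham, against 15.5, 15.8, 28.4 and 18.0 CPM in APOE3 sham (-0.84 ± 0.48, adjusted p = 0.962). The other values with the smallest p were 1.14 ± 0.65 for Mrpl41 and 0.63 ± 0.40 for Mrpl27, which sits near the catalytic centre in bacteria, and -0.82 ± 0.46 for Mrps24, -0.80 ± 0.49 for Mrps18a and -0.75 ± 0.52 for Mrps33. Each of these had an adjusted p of 0.962.

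Between genotypes in microbead retinas, 0 of 51 genes passed by edgeR, DESeq2 or limma-voom, beside 0.578% (44) of all genes tested and 0.153% (4) of the 2616 genes of similar level by edgeR. At an unadjusted p under 0.05 there was 1 of 51, beside 9.8% of all genes tested. It was Mrps30, with 6.05, 4.98 and 8.64 CPM in APOE4 microbead, against 11.3, 12.2 and 24.9 CPM in APOE3 microbead (-1.26 ± 0.62, adjusted p = 0.507). The median of the 51 genes was -0.21, beside 0.00 over all genes tested. Mrps30 with Mrps9, Mrps17, Mrpl35 and Mrpl50 made 5 of 51 genes with all APOE4 microbead libraries below all APOE3 microbead libraries, beside 7.19% of all genes tested. Mrps26 was the 1 gene with all of them above, beside 7.36%. Mrps9 was at 12.1, 11.6 and 10.4 CPM in APOE4 microbead, against 18.1, 34.5 and 14.2 CPM in APOE3 microbead (-1.01 ± 0.54, adjusted p = 0.570). Mrpl35 had -1.20 ± 0.61 (adjusted p = 0.526) and Mrpl19 -0.56 ± 0.28 (adjusted p = 0.521). On the upper side, Mrps26 had 0.43 ± 0.35, Mrpl38 0.43 ± 0.51, Mrps5 0.28 ± 0.46 and Mrps24 0.23 ± 0.49, with adjusted p-values between 0.801 and 0.961. This comparison and the interaction share libraries with the comparisons above, so their values are not independent of them.

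By place in the ribosome, 0 genes of any structural group passed in any of the 5 comparisons. The 19 tested large subunit genes with a bacterial counterpart had median log2 fold changes of -0.24 in APOE4 and 0.27 in APOE3. The 16 large subunit genes listed as found only in mitochondria had -0.20 in APOE4 and 0.01 in APOE3. In the small subunit the medians were -0.24 in APOE4 and 0.17 in APOE3 for 10 genes with a bacterial counterpart. They were 0.04 in APOE4 and 0.10 in APOE3 for 6 genes listed as found only in mitochondria. The lists of genes found only in mitochondria hold Mrps18a (large subunit) and Mrps18b (small subunit), although both are related to bacterial protein S18. Mrps36, which is in none of these lists, had too few reads for a test. It was at 4.04, 1.66 and 3.46 CPM in APOE4 microbead, against 7.18, 8.28, 16.0 and 7.54 CPM in APOE4 sham, on 5 reads in all of APOE4 microbead. In APOE3 it was at 20.4, 7.79 and 8.88 CPM in microbead and 6.87, 12.3, 8.13 and 10.8 CPM in sham.

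The proteins around the polypeptide exit and in the stalk form 9 of the 78 genes, of which 6 could be tested. In APOE4 all 6 had a log2 fold change below 0 (median -0.25), beside 31 of the 51 genes. In APOE3 4 of 6 were above 0 (median 0.12), beside 32 of the 51. In APOE4 the values of Mrpl45 and Mrpl12 lay near 0, and their sign held in 15 of 25 and 16 of 26 alternative analyses. Mrpl24, at the exit, was at 34.3, 39.9 and 19.0 CPM in APOE4 microbead, against 43.1, 49.7, 39.1 and 47.1 CPM in APOE4 sham (-0.53 ± 0.33, adjusted p = 0.876). In APOE3 it was at 27.1, 44.5 and 33.7 CPM in microbead and 39.5, 22.8, 56.9 and 38.4 CPM in sham (-0.12 ± 0.32, adjusted p = 0.943). The exit protein Mrpl23 had -0.37 ± 0.92 in APOE4 and 0.22 ± 0.89 in APOE3, the widest intervals of these genes. Mrpl44, an exit protein of the RNase III family, had -0.14 ± 0.57 in APOE4 and 0.02 ± 0.55 in APOE3. Mrpl45, which anchors the ribosome to the inner membrane, had -0.00 ± 0.57 in APOE4 and 0.38 ± 0.52 in APOE3. Mrpl12, the stalk protein that contacts translation factors, had -0.00 ± 0.67 in APOE4 and 0.47 ± 0.62 in APOE3. Mrpl22 and Mrpl47 at the exit and Mrpl11 in the stalk had too few reads, with 70, 65 and 77 over the 14 libraries.

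Genes with other special roles gave 0 calls or too few reads. Mrps12, a protein of the decoding centre, had 58 reads in all and was not tested. Its mean was 4.23 ± 3.68 CPM in APOE4 microbead, 10.4 ± 5.26 in APOE3 microbead, 6.38 ± 6.53 in APOE4 sham, then 7.24 ± 5.00 in APOE3 sham (SD). Mrpl58, a peptidyl-tRNA hydrolase that frees stalled ribosomes, was at 11.4 ± 6.99 CPM in APOE4 microbead, 14.4 ± 7.10 in APOE3 microbead, 13.6 ± 4.11 in APOE4 sham, then 9.52 ± 2.97 in APOE3 sham. The 3 genes related to bacterial protein S18 were Mrps18a, Mrps18b and Mrps18c. Mrps18a had -0.24 ± 0.58 in APOE4 and -0.31 ± 0.50 in APOE3, and Mrps18b had -0.26 ± 0.45 in APOE4 and -0.18 ± 0.46 in APOE3, with adjusted p-values from 0.874 to 0.992. Mrps18c was not tested, with 13.3 ± 7.23 CPM in APOE4 microbead, 6.47 ± 1.72 in APOE3 microbead, 10.2 ± 2.08 in APOE4 sham, then 11.9 ± 9.03 in APOE3 sham.

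The cytosolic ribosomal protein genes, which encode the ribosome outside mitochondria, were set beside them. Of 78 tested, 56 rose and 0 fell in APOE3 microbead, beside 3.54% of all genes tested that rose, and their median log2 fold change was 0.91. In APOE3 the median half-width of the 95% interval was 0.44 for the cytosolic genes and 0.93 for the 51 mitochondrial ribosomal protein genes. The counts of calls in these families therefore do not rest on equal precision. In APOE4, 0 of 78 passed, with a median of 0.09 by this scaling and -0.14 by library totals. For 18 of the 51 mitochondrial ribosomal protein genes the 95% interval in APOE3 lay wholly below the cytosolic median of 0.91, for 33 it held that value, and for 0 it lay above. Rpl41, with the smallest p, rose by 1.29 ± 0.21 (adjusted p = 0.00021), Rpl23a by 1.14 ± 0.20 (adjusted p = 0.00053) and Rpl6 by 1.03 ± 0.19 (adjusted p = 0.000777). Cytosolic genes took 4.04%, 3.93% and 3.45% of the reads outside satellite genes in APOE3 microbead, against 2.35%, 1.72%, 2.31% and 2.21% in APOE3 sham. Mitochondrial ribosomal protein reads per 100 cytosolic ones were 7.27, 7.84 and 8.41 in APOE3 microbead, against 12.996, 16.4, 13.5 and 12.9 in APOE3 sham, without overlap. In APOE4 they were 7.52, 11.3 and 9.04 in microbead and 10.8, 11.2, 12.1 and 11.8 in sham, where replicate 2 of microbead lay inside the sham range. The count of 56 was 7 with library totals as the scaling, 34 with length offsets, 28 with only the libraries compared, 37 without APOE3 microbead replicate 2 and 0 without replicates 1 and 2 together. In these 5 settings the median lay between 0.75 and 0.90. By limma on log2(TPM + 1) the count was 0 with a median of 0.91. Library totals and the deposited TPM used by limma include the satellite genes, which differ in amount between libraries. Many cytosolic genes have near-identical pseudogenes that can take or give reads. In the same APOE3 microbead libraries the summed monocyte markers were higher, and the summed microglial and lymphocyte markers lower, than in APOE3 sham. The part of pseudogenes and of other cells was not tested.

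**Figure D4:**
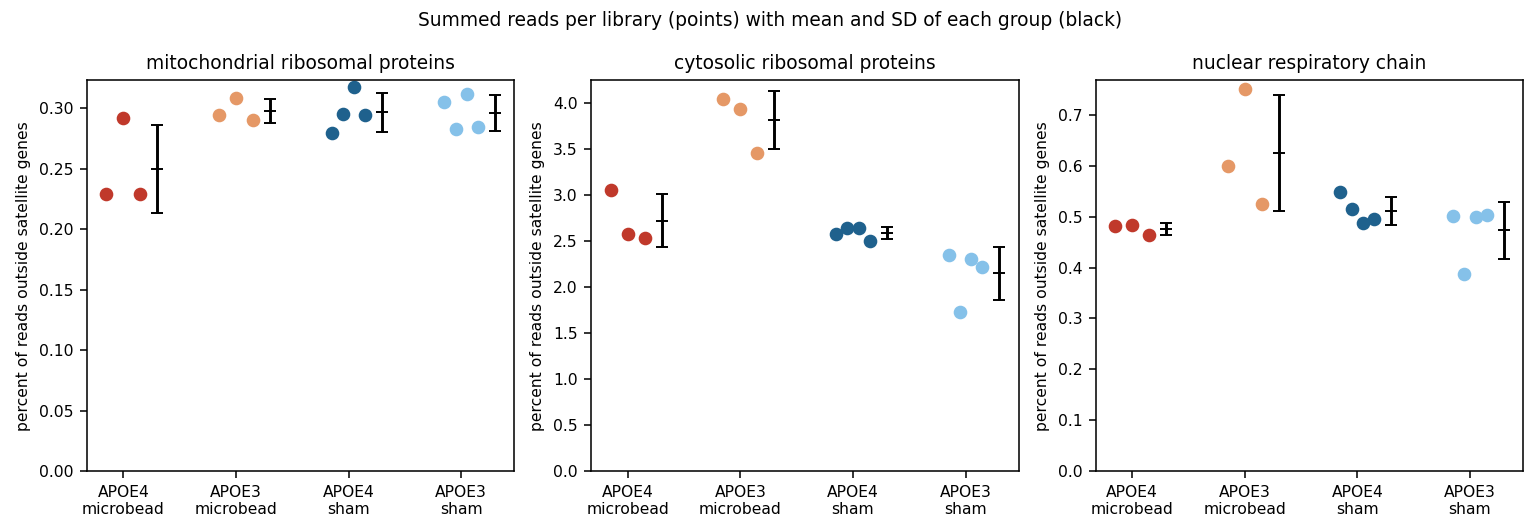
Reads of mitochondrial ribosomal protein, cytosolic ribosomal protein and nuclear respiratory chain genes as a percent of the reads outside satellite genes, 1 point per library, with the mean and SD of each group in black. The cytosolic share of APOE3 microbead (3.45% to 4.04%) stands above all other libraries, while the mitochondrial ribosomal share stays between 0.229% and 0.318% in all 14.

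Nuclear genes for subunits of the respiratory chain, whose mitochondrial partners the mitochondrial ribosome makes, gave 2 calls among 68 tested in APOE3, both higher, beside 3.54% of all genes tested that rose, so that this count is no more than the share over all genes. Their median was 0.49, with 66 above 0 and 2 below. At an unadjusted p under 0.05 by edgeR there were 15 of 68, all higher, beside 14.7% of all genes tested in either direction. The called genes were Cox8a (1.04 ± 0.26, adjusted p = 0.0134), a subunit of cytochrome c oxidase, and Ndufc2 (1.47 ± 0.41, adjusted p = 0.0300), a subunit of complex I. Cox6b1, also of cytochrome c oxidase, had 0.87 ± 0.29 (adjusted p = 0.0855). In APOE4 0 of 68 passed, the median was -0.06, and Cox8a and Ndufc2 had -0.15 ± 0.27 and -0.25 ± 0.40. With APOE3 microbead replicate 2 left out, with library totals as the scaling or with length offsets, 0 of 68 passed in APOE3.

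**Figure D5:**
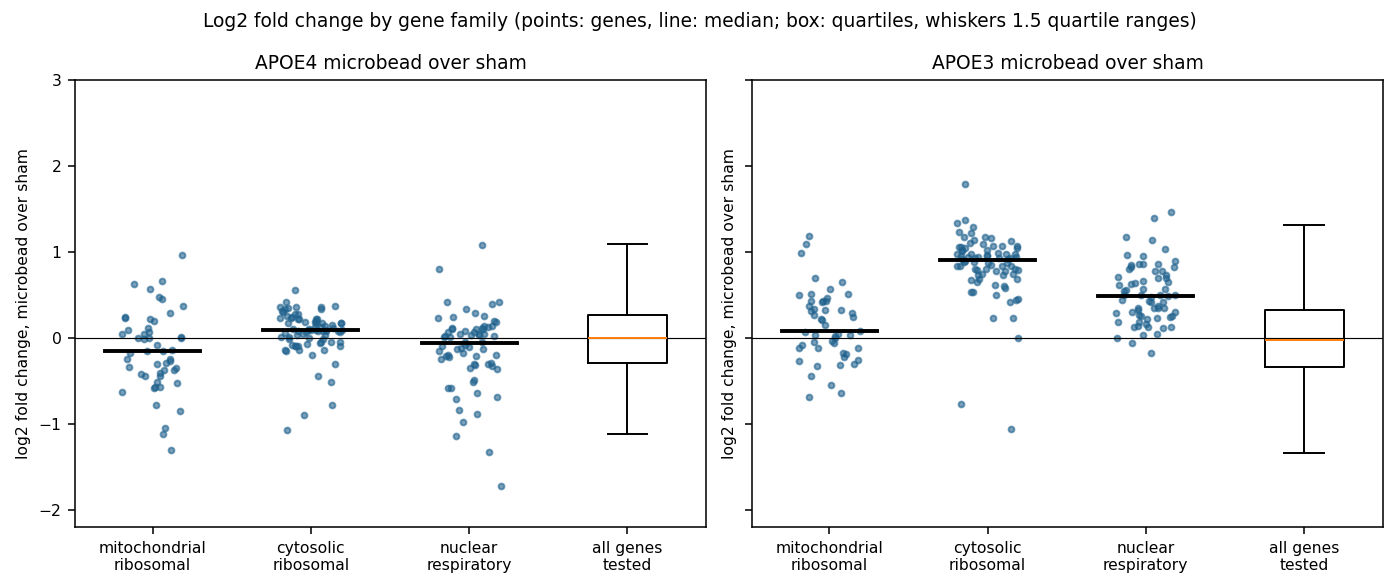
Log2 fold change of microbead over sham per gene (points) with the median (thick line) for the 51 mitochondrial ribosomal, 78 cytosolic ribosomal and 68 nuclear respiratory chain genes tested, in APOE4 (left) and APOE3 (right); the box shows the quartiles of all 7609 genes tested, with whiskers to 1.5 quartile ranges. In APOE4 the medians are -0.15, 0.09 and -0.06, and in APOE3 they are 0.09, 0.91 and 0.49.

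The genes that build and serve the mitochondrial ribosome gave 1 call. The 5 ribosomal proteins known under other names were all tested, and 0 passed. Ptcd3, of the small subunit, had 0.88 ± 0.39 in APOE4 (adjusted p = 0.693) and 0.28 ± 0.39 in APOE3. Dap3, a GTP-binding protein of the small subunit, had -0.9997 ± 0.59 in APOE4 and 0.17 ± 0.56 in APOE3, and Chchd1 -0.96 ± 0.61 in APOE4 and -0.32 ± 0.57 in APOE3. Aurkaip1 had 0.42 ± 0.40 in APOE4 and 0.12 ± 0.40 in APOE3, and Gadd45gip1, of the large subunit, 0.20 ± 0.65 in APOE4 and -0.07 ± 0.59 in APOE3. Of 13 tested genes for assembly and rRNA modification, 0 passed, and those with the smallest p in APOE3 were Mterf4 (0.94 ± 0.63), Tfb1m (-0.70 ± 0.57) and Rbfa (-0.39 ± 0.43). Of 10 tested translation factors, 1 fell in APOE3, beside 1.67% of all genes tested that fell. Gfm2, which splits the ribosome after termination, had a log2 fold change of -0.00 ± 0.20 in APOE4 and -0.74 ± 0.21 in APOE3 (adjusted p = 0.0325 by edgeR). The elongation factor Tufm had -0.77 ± 0.47 in APOE4 and 0.79 ± 0.41 in APOE3 (adjusted p = 0.395), and Slirp, which binds mitochondrial messenger RNA, -0.66 ± 0.53 in APOE4 and 0.76 ± 0.50 in APOE3. Of 10 mitochondrial aminoacyl-tRNA synthetase genes tested 0 passed, with 0.54 ± 0.23 for Lars2, 0.53 ± 0.42 for Gatc and -0.43 ± 0.38 for Tars2 in APOE3.

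The factors known to switch on nuclear genes for mitochondria gave 0 calls among 6 tested. Yy1 had 0.19 ± 0.40 in APOE4 and -1.32 ± 0.48 in APOE3 (adjusted p = 0.129). Pprc1, a coactivator, had 0.44 ± 0.45 in APOE3, and Gabpb1, a partner of the ETS factor GABP, -0.41 ± 0.54. In the mitochondrial transcription machinery, the polymerase Polrmt had 0.75 ± 0.44 in APOE3 (adjusted p = 0.482) and Tfb2m 0.46 ± 0.65.

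The 78 genes lie on 17 chromosomes, with at most 11 on 1 of them (chromosome 11). Many share a start region with another gene: 19 of 78 (24.4%) have a coding neighbour on the other strand whose start lies at most 1000 bases upstream or, for overlapping starts, at most 100 bases downstream, beside 7.22% of 22028 coding genes. Examples, chosen after the positions were seen, are Mrps12 with Sars2, which charges mitochondrial tRNA with serine, Mrpl32 with the proteasome gene Psma2, Mrpl49 with the cytosolic ribosomal gene Fau, and Mrps18b with Ppp1r10. RefSeq promoters of 300 bases (250 before and 50 after the start, GRCm38.p6) were found for 69 of the 78 genes (75 promoters), with a median GC content of 58.7%, beside 52.7% over all promoters, and a median of 21 CpG dinucleotides, beside 7. Exact matches were counted on both strands for 3 motifs of factors known to act on nuclear genes for mitochondria. Matches of different motifs overlapped for 0 of the 69 genes. The NRF1 motif, of 10 bases, was present for 13 of 69 genes (18.8%), beside 5.19% of 27025 genes. The ETS motif ACCGGAAGT of GABP was present for 4 (5.80%), beside 1.21%, and the YY1 motif, also of 10 bases, for 5 (7.25%), beside 0.995%. All 3 motifs contain CpG, and the shares were not compared with those of promoters of similar CpG content. A match is a description of the letters and not a bound site.

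The 120 bases before the start are printed 5′ to 3′ on the gene's strand for 3 genes, to show how such matches stand relative to the start, with the matches in capitals. They are Mrpl45 (chr11:97315596-97315715, plus strand) with 2 matches of the NRF1 motif before the start and 1 more after it, Mrpl44 (chr1:79775898-79776017, plus strand) with 1 in a promoter of 42.3% GC, and Mrpl43 (chr19:45006443-45006562, minus strand), a large subunit gene shown for its ETS match, from RefSeq, build GRCm38.p6.
Mrpl45: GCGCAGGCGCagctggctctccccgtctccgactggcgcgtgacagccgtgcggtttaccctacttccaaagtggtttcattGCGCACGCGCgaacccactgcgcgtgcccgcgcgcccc
Mrpl44: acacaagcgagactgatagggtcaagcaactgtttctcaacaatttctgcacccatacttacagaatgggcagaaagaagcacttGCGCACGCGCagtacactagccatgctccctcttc
Mrpl43: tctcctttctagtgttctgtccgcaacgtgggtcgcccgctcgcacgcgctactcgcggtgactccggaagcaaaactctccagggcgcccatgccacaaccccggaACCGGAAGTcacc
The matches of Mrpl45 shown here begin 120 and 38 bases before the start, that of Mrpl44 35 bases before it and that of Mrpl43 13 bases before it. None of the 3 genes passed a test in any of the 5 comparisons; Mrpl43 had a log2 fold change of -0.35 ± 0.38 in APOE4 and -0.11 ± 0.39 in APOE3 (SE).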

How the data were processed

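RNA of sorted microglia from 14 retinas was sequenced, 1 library each. The authors deposited, per transcript and library, estimated counts, TPM and effective lengths from Salmon 1.4.0 against mm10, with R 4.0.3 and DESeq2 1.30.1 also named, per the submitters' processing notes; the annotation is not given in the sources used here. The authors also deposited a gene table in TPM, per the file header, which named the 78 genes, and 0 of its columns lacked a sample. Each library's own TPM, summed per gene, matched its column within 1% for 99.2% to 99.4% of genes.

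Estimated counts were summed per gene over GENCODE M21 transcripts (116023 of 116945 matched) and rounded. edgeR 4.0.16 (R 4.3.3) fitted 4 group means over 14 libraries with TMM scaling, the filterByExpr filter (minimum count 10, minimum total 15) and robust quasi-likelihood tests. P-values were adjusted by Benjamini-Hochberg over 7609 genes, and standard errors were taken as the fold change over the square root of F. The edgeR script was tested on simulated data. Alternatives used DESeq2 1.42.0, limma 3.58.1 (limma-voom, and log2 of TPM plus 1 or 5 for genes with a mean TPM of at least 1), length offsets, other scalings and filters, a replicate block and each library left out. The p-values and levels rest on 545 to 1379 reads per library for all 78 genes together, and reads are not independent molecules.

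Genes were named by rule: any gene called; in each comparison the 4 higher and 4 lower with the smallest p; the 5 highest and 3 lowest levels; the exit and stalk proteins; Mrps12, Mrps18a, Mrps18b, Mrps18c, Mrps30, Mrps36 and Mrpl58; and up to 3 genes of each other list. Mrpl13, Mrps11, Mrpl32, Mrpl43, Mrpl46, Mrpl49 and Mrpl50 were named after their values or positions were seen. The members and lists were chosen with earlier results of these data known.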

Additional observations from a re-analysis of the deposited data

Results flagged for a closer look

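In 8 of 88 groups of 4 sham libraries, 1 library stood apart from the other 3 by Dixon's criterion, which chance gives for about 5% of groups. Mrpl10 was at 20.3 CPM in APOE3 sham replicate 3, against 27.5 to 28.8 CPM in the others of its group. Mrpl18 was at 18.2 CPM in APOE4 sham replicate 2, against 7.11 to 8.97 CPM. Mrpl19 was at 148 CPM in APOE3 sham replicate 1, against 105 to 112 CPM. Mrpl23 had 0 CPM in APOE4 sham replicate 1, against 16.6 to 17.8 CPM. Mrpl58 was at 7.54 CPM in APOE4 sham replicate 4, against 14.9 to 16.1 CPM. Mrps15 was at 13.2 CPM in APOE3 sham replicate 4, against 26.3 to 28.4 CPM. Mrps36 was at 16.0 CPM in APOE4 sham replicate 3, against 7.18 to 8.28 CPM. The ratio of Mrpl reads to Mrps reads was 2.24 in APOE3 sham replicate 2, against 1.98 to 2.02 in the others. Each of the 8 sham libraries stood apart once.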

How the results depend on the processing

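Over 26 alternatives, 0 of the tested genes were called in each comparison, except Mrpl33 in APOE3 with length offsets (1 gene called). The median log2 fold change in APOE4 was -0.37 with library totals and -0.50 by limma on log2(TPM + 1), that of the interaction -0.43 and -0.64, and that of APOE4 over APOE3 in sham 0.21 and 0.23; in microbead the genotype median was -0.41 by limma on log2(TPM + 1). Over all genes tested, the median was -0.23, -0.21 and 0.16 with library totals, and -0.29, -0.30 and 0.18 by limma on log2(TPM + 1), in APOE4, the interaction and sham. The APOE3 median was -0.089 without APOE3 microbead replicates 1 and 2 together and 0.25 with coding transcripts only, an alternative chosen after seeing the data, which gave -0.40 for the interaction. Leaving out 1 library gave medians of -0.04 to 0.14 in APOE3, -0.33 to -0.074 in APOE4, -0.37 to -0.073 for the interaction, -0.05 to 0.12 between sham genotypes and -0.40 to -0.14 between microbead genotypes; the lowest in APOE4, the interaction and microbead came without APOE4 microbead replicate 2. The summed TPM ratio in APOE4 was 0.893 without satellite genes. Shorter or stricter motifs were found for 4.35% (NRF1, a single fixed sequence), 17.4% (CCGGAAGT) and 18.8% (AAGATGG) of the 69 genes, beside 1.07%, 4.31% and 7.28% of all genes. Causes of these shifts were not tested. With the replicate number as a block, 0 of the 51 genes were called in each comparison, and all calls were 291 against 396 in APOE3, 5 against 17 in APOE4, 3 against 7 for the interaction and 33 against 44 between microbead genotypes. Correlations of same-numbered libraries lay between -0.144 and 0.0985. With so few reads per gene, such values cannot show whether same-numbered samples share an animal or a batch. A median of 11 reads per library and tested gene limits what could be detected.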

Other observations

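The mitochondrial genome's own messenger RNAs, which this ribosome translates, gave 0 calls among 12 tested, with medians of 0.29 in APOE4 and 0.57 in APOE3. In APOE4 9 were above 0 and 3 below (-8.65 to 0.78), and in APOE3 11 above and 1 below (-0.44 to 2.65). At an unadjusted p under 0.05 by edgeR there were 0 of 12 in APOE4, beside 6.49% of all genes tested. In APOE3 there were 4 of 12, all higher, beside 14.7%. The subunit gene of cytochrome c oxidase mt-Co1 had 0.30 ± 0.22 in APOE4 and 0.69 ± 0.22 in APOE3 (SE, adjusted p = 0.0679 by edgeR in APOE3), and the complex I subunit gene mt-Nd1 0.34 ± 0.26 in APOE4 and 0.59 ± 0.26 in APOE3. For mt-Nd5, also of complex I, the values were 0.29 ± 0.23 in APOE4 and 0.50 ± 0.23 in APOE3. Nuclear copies of mitochondrial sequence can share such reads, so these counts are uncertain. Genes used as a gauge of mitochondrial content gave 0 calls among 13 tested, with medians of -0.11 in APOE4 and 0.16 in APOE3. The chaperonin gene Hspe1 had 0.10 ± 0.36 in APOE4 and 1.05 ± 0.35 in APOE3 (adjusted p = 0.0867 by edgeR in APOE3), the citrate synthase gene Cs 0.06 ± 0.32 in APOE4 and 0.59 ± 0.31 in APOE3, and the outer membrane channel Vdac2 -0.24 ± 0.23 in APOE4 and 0.33 ± 0.23 in APOE3.

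The ratio of Mrpl reads to Mrps reads was 1.98, 2.45 and 1.97 in APOE4 microbead, against 2.32, 2.43, 2.24 and 2.39 in APOE4 sham. It was 2.62, 2.03 and 2.09 in APOE3 microbead, against 1.99, 2.24, 2.02 and 1.98 in APOE3 sham. The groups overlapped in both genotypes.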
